A study of Mus musculus with 72 samples.

Results

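Collagens and the other proteins of the extracellular matrix were followed here as a set of 39 genes in fat, liver and pituitary of adult male mice. The set was fixed by name: 12 collagen chains outside basement membranes, 6 basement membrane genes, 8 genes of elastic fibres, glycoproteins and crosslinking enzymes, 5 small proteoglycans and fibril regulators, and 8 matricellular and TGF-beta genes. All 39 were found among the 55416 genes counted. In epididymal white adipose tissue (eWAT), 3 of the 39 passed the test, all higher on high fat diet, in mice whose mothers ate freely. Of all tested genes 8.01% passed, in either direction. The 3 were Postn, Tgfb1 and Lum, and none passed without mouse 23 of the high fat group. In the same fat depot on high fat diet, Tgfb1 and Col12a1 were lower and Eln was higher in mice whose mothers had been food restricted, beside 9.73% of all tested genes that passed. In liver Col15a1 alone passed, for the diet in mice of restricted mothers, beside 0.522% of all tested genes, and in pituitary no member did. In pituitary Col1a1 had values that did not overlap between FED-HFD mice and either of the groups compared with them. Of all tested genes 0.384% and 0.27% did not overlap in these 2 comparisons.

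The extracellular matrix is the protein scaffold between cells. Fibrillar collagens of types I, III and V are secreted mainly by fibroblasts and related stromal cells, are assembled as triple helices of chains and are crosslinked by lysyl oxidases into fibres that carry load. Type VI collagen forms beaded microfilaments around cells such as adipocytes, and type IV collagen, laminins and nidogen form the sheet-like basement membrane that surrounds adipocytes, blood vessels and glands. Small leucine-rich proteoglycans such as decorin and lumican set fibril spacing, and matricellular proteins such as periostin, tenascin C and the thrombospondins act on cells more than on structure. Transforming growth factor beta 1, the product of Tgfb1, is a cytokine that drives matrix production in many tissues and is made by macrophages among other cells. In obesity adipose tissue is known to remodel its matrix as adipocytes enlarge, and in liver hepatic stellate cells are the main source of fibrillar collagen.

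The mice were male FVB.129P2 offspring. FED mice had dams fed ad libitum, and CR20 mice had dams given 20% less food than a paired FED dam from embryonic day 15 until weaning at postnatal day 21. From 8 weeks of age the offspring ate a control diet with 10% of calories from fat (CTRL) or a high fat diet with 45% (HFD), for 10 weeks as the study describes the sequenced mice, while the labels list 10 or 16. This gave the groups FED-CTRL, FED-HFD, CR20-CTRL and CR20-HFD, with 6 mice in each. Pituitary, eWAT and liver RNA of the same 24 mice was sequenced as 72 libraries. The dam and litter of each mouse are not given in the sources used here, so littermates would be counted as separate mice, and only male offspring were studied.

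Libraries held 11589675 to 22364963 counts in eWAT, 9842813 to 19928212 in liver and 18299494 to 27601208 in pituitary. The defining markers of each tissue were present at high levels in its libraries, with summed medians per group of 28300 to 30800 CPM (counts scaled to a common library size) for 10 adipocyte genes in eWAT, 93800 to 109000 for 8 hepatocyte genes in liver, and 287000 to 321000 for 6 anterior pituitary hormone genes in pituitary. Some libraries stood apart. In eWAT, FED-HFD mouse 23 had a summed macrophage marker level of 10700 CPM and an adipocyte level of 11000 CPM. CR20-CTRL mouse 5 also had a low adipocyte level, 12230 CPM, with a macrophage level of 1854 CPM. The libraries of mice 4, 5 and 6 held 134, 52.5 and 26.6 CPM of 10 epididymis and testis genes against at most 0.232 CPM in the other 21. In liver, 6 libraries spread over all 4 groups had mitochondrial shares of 1.56 to 4.15% of counts against 4.75 to 8.03% in the other 18. In pituitary, FED-HFD mouse 13 held 13600 CPM summed over posterior pituitary and erythrocyte genes together, against at most 5210 CPM in the other 23. Values with and without these libraries are given beside the results they touch.

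Promoter sequence is shown for Postn and Tgfb1, the 2 members with the smallest p for the diet difference in eWAT. Postn encodes periostin, a matricellular protein that binds collagen and integrins. It lies on chromosome 3 from 54268501 to 54298471 on the plus strand of GRCm39. Tgfb1 lies on chromosome 7 from 25386390 to 25404506 on the plus strand. The 250 bases before the RefSeq start of each gene follow, 5′ to 3′ on the gene's strand, with matches on either strand to the TATA box (TATAAA), the CCAAT box and the GC box (GGGCGG) in capitals. The sequences come from RefSeq promoters of GRCm38.p6 and were placed on GRCm39 by exact match, at chr3:54268278-54268527 for Postn and chr7:25386177-25386426 for Tgfb1, where they reach 27 and 37 bases past the gene starts of the GENCODE annotation.
Postn: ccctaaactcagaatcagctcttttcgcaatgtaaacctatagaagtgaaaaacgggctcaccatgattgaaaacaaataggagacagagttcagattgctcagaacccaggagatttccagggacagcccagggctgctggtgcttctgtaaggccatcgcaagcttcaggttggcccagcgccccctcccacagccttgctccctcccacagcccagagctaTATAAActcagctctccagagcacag
Tgfb1: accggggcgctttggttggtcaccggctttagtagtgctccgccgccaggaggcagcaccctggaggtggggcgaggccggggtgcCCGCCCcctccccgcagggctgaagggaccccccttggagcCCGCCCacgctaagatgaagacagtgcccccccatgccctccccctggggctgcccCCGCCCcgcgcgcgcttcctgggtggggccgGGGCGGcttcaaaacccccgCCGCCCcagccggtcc
The Postn window held 1 TATAAA match and neither of the other motifs. The Tgfb1 window held 5 matches to GGGCGG, the core of the GC box, and no TATAAA or CCAAT. Of 32851 promoters in the table, 12.4% held TATAAA, 33.8% CCAAT and 32.7% GGGCGG. Of the 25 members with a promoter in the table, 4 (16%), 7 (28%) and 15 (60%) did in at least 1 of their promoters. The shares over all promoters count each promoter singly, while a member counts if any of its promoters matches. The 2 sets of shares are therefore not like for like. These motifs do not overlap one another, and a match of letters is a description and not evidence of binding.

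Levels are given first, as CPM per kilobase of merged exons in the 6 FED-CTRL mice, so that genes can be set side by side. Of the 39 members, 35 had their highest mean level in eWAT, 2 in liver and 2 in pituitary, and 28 had their lowest in liver. The tissues were extracted and normalized apart, so these orders carry no test. Sparc, whose product binds collagen and calcium, led both eWAT at 1110 ± 155 (SD, n = 6) and pituitary at 56.3 ± 5.00. Col3a1, the chain of type III collagen, stood at 171 in eWAT against 4.40 in liver and 2.24 in pituitary. Liver differed in what led it. Col18a1, a basement membrane collagen whose end fragment is endostatin, was the top member in liver at 147 ± 39.5 (SD), above its mean level in eWAT, and Fn1, which encodes fibronectin, stood at 83.8 ± 32.7 against 48.9 ± 9.23. Loxl1, a lysyl oxidase needed for elastic fibres, was at 31.2 ± 4.40 in pituitary and 22.1 ± 3.68 in eWAT. Tnc, tenascin C, was low in both, at 0.797 ± 0.205 and 0.648 ± 0.321, which overlap. Members together took a median of 1.84 to 2.24% of counts in the eWAT groups, 0.277 to 0.334% in liver and 0.136 to 0.158% in pituitary.

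**Figure D1:**
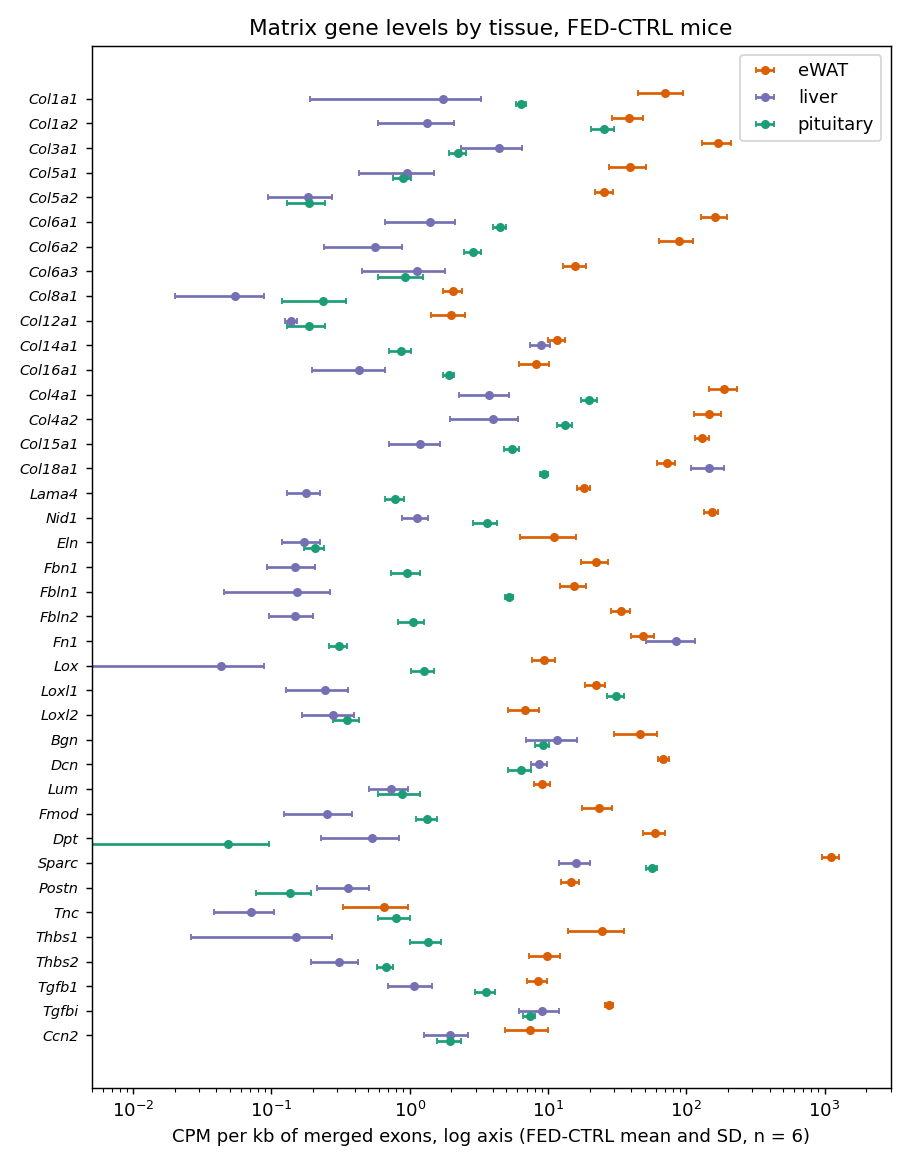
Level of each of the 39 matrix genes in FED-CTRL mice, as CPM per kilobase of merged exons on a log axis, with points for the mean and bars for the SD (n = 6) in eWAT, liver and pituitary. In 35 of 39 genes the eWAT point lies farthest to the right, and a bar whose lower end would pass 0 is drawn to just above it.

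Chains of 1 collagen type were compared across mice. After each group's mean was taken away, the correlation of log2 CPM over 24 mice between Col1a1 and Col1a2, the chains of type I collagen, was 0.904 in eWAT, 0.955 in liver and 0.629 in pituitary. For Col6a1 and Col6a2 of type VI collagen it was 0.97, 0.909 and 0.6. The other chain of that trimer, Col6a3, was less close: its correlation with Col6a1 was 0.513, 0.668 and -0.127, its correlation with Col6a2 was 0.591, 0.702 and -0.0751, and that of Col5a1 with Col5a2 of type V collagen was 0.513, 0.647 and 0.398. These points share library and depth, and the values are descriptions. Taking away group means leaves in differences between libraries of a group. In liver, 6 libraries of low mitochondrial share, spread over all 4 groups, differed from the other 18 in median log2 CPM. The difference was -2.02 for Col1a1 and -0.66 for Col1a2. What part such libraries had in the correlations was not tested. For Col4a1 and Col4a2 of type IV collagen the correlation was 0.944, 0.948 and 0.926, but these genes start head to head and their exons overlap. The strand setting of the counting is not given in the sources used here, so part of their counts may be shared.

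The first question was what the high fat diet did to matrix genes in the fat of mice from FED dams. A gene is called here when the adjusted p of edgeR's quasi-likelihood test over all tested genes is under 0.055 and its log2 fold change is at least 0.58 in size. All 39 members were tested in eWAT, and 3 were called, all higher in FED-HFD than in FED-CTRL. This is 7.69% of members, beside 8.01% of all 15964 tested genes in either direction, 1025 genes higher and 253 lower. At an unadjusted p under 0.05 there were 8 members, all higher, or 20.5%, beside 25.7% of all genes in either direction. Matrix genes were thus called about as often as genes in general. The members' median log2 fold change was 0.26 with 31 of 39 above 0, beside a median of 0.00 for all genes. The groups were uneven by role. All 5 fibrillar collagens lay above 0 (median 0.51, range 0.13 to 0.77). So did all 7 microfibrillar, short-chain and fibril-associated collagens (median 0.29) and all 8 matricellular and TGF-beta genes (median 0.34). With all mice kept, no collagen passed the test. The 6 basement membrane genes had a median of -0.12 and spanned -0.16 to 0.21, and the 8 elastic fibre, glycoprotein and crosslinking genes and the 5 small proteoglycans and fibril regulators had medians of 0.28 and 0.02. FED-HFD mouse 23 was the highest of 24 mice for 4 of the 5 fibrillar collagens. Without it 26 of 39 members lay above 0, with a median of 0.20, and the medians by role are not given without it.

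Postn had the smallest p among members for this diet difference. Its log2 CPM was 6.67, 7.04 and 7.26 (lowest, median and highest mouse) in FED-CTRL, 7.09, 7.58 and 9.70 in FED-HFD, 6.96, 7.29 and 7.78 in CR20-CTRL, and 7.11, 7.29 and 8.12 in CR20-HFD. FED-HFD mice thus ran from the upper end of the FED-CTRL range to far above every other mouse, and the groups overlapped. The mean was 128 ± 18.3 CPM in FED-CTRL and 305 ± 264 CPM in FED-HFD (SD, n = 6 each). The fitted log2 fold change was 1.25 with a standard error of 0.33 and an adjusted p of 0.0161, and an exact two-sided permutation test over the 924 divisions of the 12 mice gave p = 0.00649. In CR20 mice the same diet contrast was 0.18 (adjusted p = 0.962).

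Tgfb1 was the member called in both comparisons that involve FED-HFD. Its log2 CPM was 5.13, 5.44 and 5.69 in FED-CTRL, 5.33, 6.01 and 7.20 in FED-HFD, 5.16, 5.36 and 6.02 in CR20-CTRL, and 5.07, 5.40 and 5.44 in CR20-HFD. The CR20-HFD mice formed the tightest of the 4 groups and overlapped the low end of FED-HFD. Mean levels were 42.8 ± 7.06, 75.2 ± 38.6, 45.6 ± 11.7 and 40.0 ± 3.94 CPM in that order. FED-HFD was higher than FED-CTRL by 0.81 on the log2 scale (SE 0.22, adjusted p = 0.0222, exact permutation p = 0.0260). CR20-HFD was lower than FED-HFD by -0.91 (SE 0.22, adjusted p = 0.00856, exact permutation p = 0.0108).

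Lum encodes lumican, a small leucine-rich proteoglycan that binds collagen fibrils, and lies on chromosome 10 from 97400990 to 97408577 on the plus strand. Log2 CPM values were 5.64, 5.89 and 6.12 in FED-CTRL, 6.02, 6.52 and 8.04 in FED-HFD, 4.88, 6.05 and 6.31 in CR20-CTRL, and 5.42, 6.01 and 6.62 in CR20-HFD. The groups overlapped, and 1 FED-HFD mouse lay far above the rest. The mean was 58.5 ± 7.49 CPM in FED-CTRL and 118 ± 74.4 CPM in FED-HFD, with a log2 fold change of 1.02 (SE 0.29, adjusted p = 0.0249, exact permutation p = 0.00649). CR20-HFD differed from FED-HFD by -0.80 with an adjusted p of 0.0600, just past the threshold. For this comparison Lum was called in 6 of the 24 runs that each left out 1 mouse, and in 2 of 10 other settings. Over all alternatives its adjusted p ran from 0.0294 to 0.461.

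Other members came near a call in FED-HFD against FED-CTRL. Lox, the enzyme that starts crosslinking of collagen and elastin, had an adjusted p of 0.0361 but a log2 fold change of 0.51, under the minimum. Col12a1, a collagen that decorates fibrils, had 0.84 (adjusted p = 0.0802), Col1a2 had 0.77 (0.0853), Tnc had 1.17 (0.0916) and Fbln2, the gene of fibulin 2, had 0.42 (0.191). None of these 4 passed the test in edgeR with all mice kept. Without FED-CTRL mouse 16 Col12a1 was called, at 1.01 (adjusted p = 0.0547). With limma voom and quality weights 5 members were called, with Col12a1 and Tnc added, and with DESeq2 6 were, with Col1a2 added as well. The share of all genes called by these 2 tools is not given here, so the larger counts show no excess of members.

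**Figure D2:**
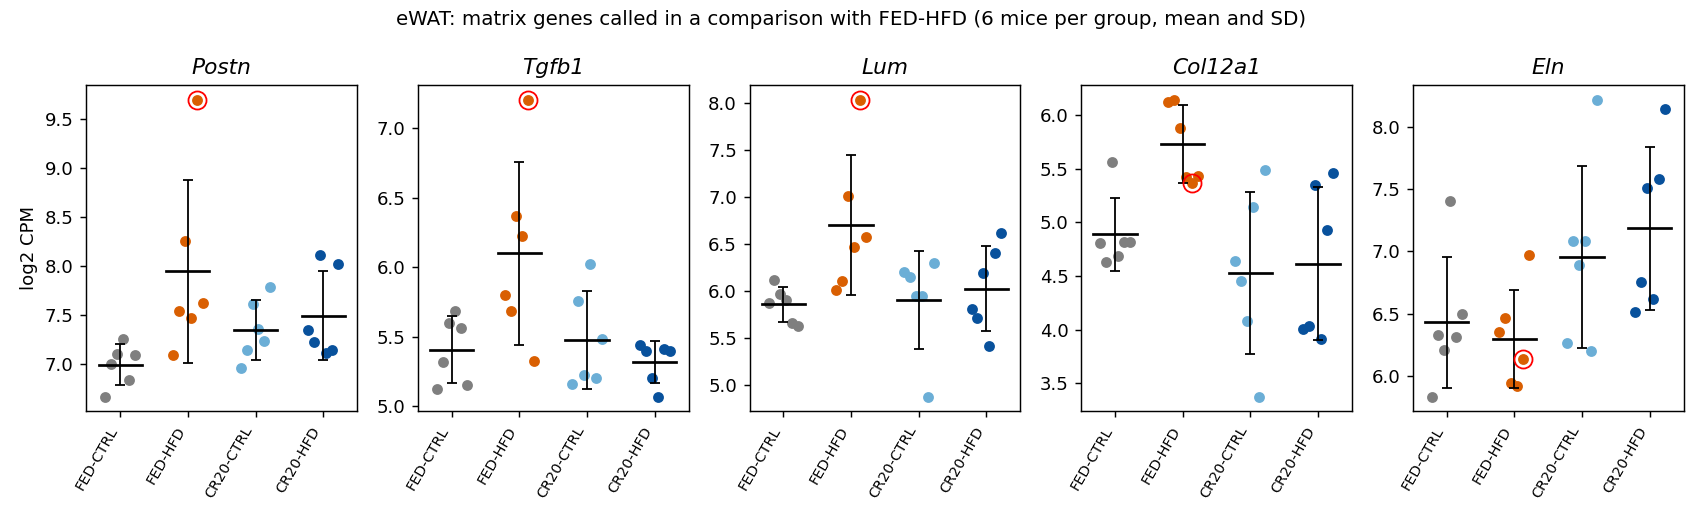
Log2 CPM in eWAT of the 5 members called in a comparison with FED-HFD, by group, with a point per mouse, a black line and bar for the mean and SD (n = 6), and a red ring around FED-HFD mouse 23. Mouse 23 is the highest point for Postn (9.70), Tgfb1 (7.20) and Lum (8.04). It is the lowest FED-HFD point for Col12a1 (5.36) and lies between other FED-HFD points for Eln (6.13).

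The 3 diet calls in FED mice rested in part on mouse 23. That library was the highest of 24 for 13 members and the lowest for 3 basement membrane genes, namely Lama4, Nid1 and Col18a1. Without it no member was called and 5 members had an unadjusted p under 0.05. Postn then had a log2 fold change of 0.64 (adjusted p = 0.0726), Tgfb1 0.50 (0.0902) and Lum 0.61 (0.123), so the directions stayed and the sizes shrank. Without mice 4, 5 and 6 all 3 were still called, at 1.26 (adjusted p = 0.0200), 0.82 (0.0263) and 1.02 (0.0288). With the libraries of mouse 23 and CR20-CTRL mouse 5 both left out, Postn alone was called. Without FED-CTRL mouse 42 a single member was called, again Postn. With the mitochondrial share of counts as a covariate none was, and Postn stood at 0.78 (adjusted p = 0.264). Mouse 23 had the lowest such share of the eWAT libraries, 1.69%, and FED-HFD had the lowest group median, 2.91%. This covariate is thus tied to that mouse and to the group. Lum was also lost without FED-CTRL mouse 41, and Postn (0.0595) and Tgfb1 (0.0691) had an adjusted p past the threshold when only these 2 groups were fitted.

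Macrophage markers moved with these genes. Of 12 macrophage markers, 8 were called higher in FED-HFD than in FED-CTRL, among them Cd68 (log2 fold change 2.11), Adgre1 (1.79) and Trem2 (2.66), and their summed level ran from 1570 to 2250 CPM in FED-CTRL, 2340 to 10700 in FED-HFD, 1240 to 2560 in CR20-CTRL and 1310 to 2200 in CR20-HFD, with no marker at 0 throughout a group. Of 10 stromal progenitor markers, the cells that include fibroblasts, 0 were called in this contrast by edgeR and 2 had an unadjusted p under 0.05, and their sum was 741 to 860 CPM in FED-CTRL and 669 to 1290 in FED-HFD. Of 10 adipocyte markers 1, Slc2a4, was called lower. What part these shifts had in the values of Postn, Tgfb1 and Lum was not tested. In bulk tissue more cells of a type and more RNA per cell cannot be told apart.

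**Figure D3:**
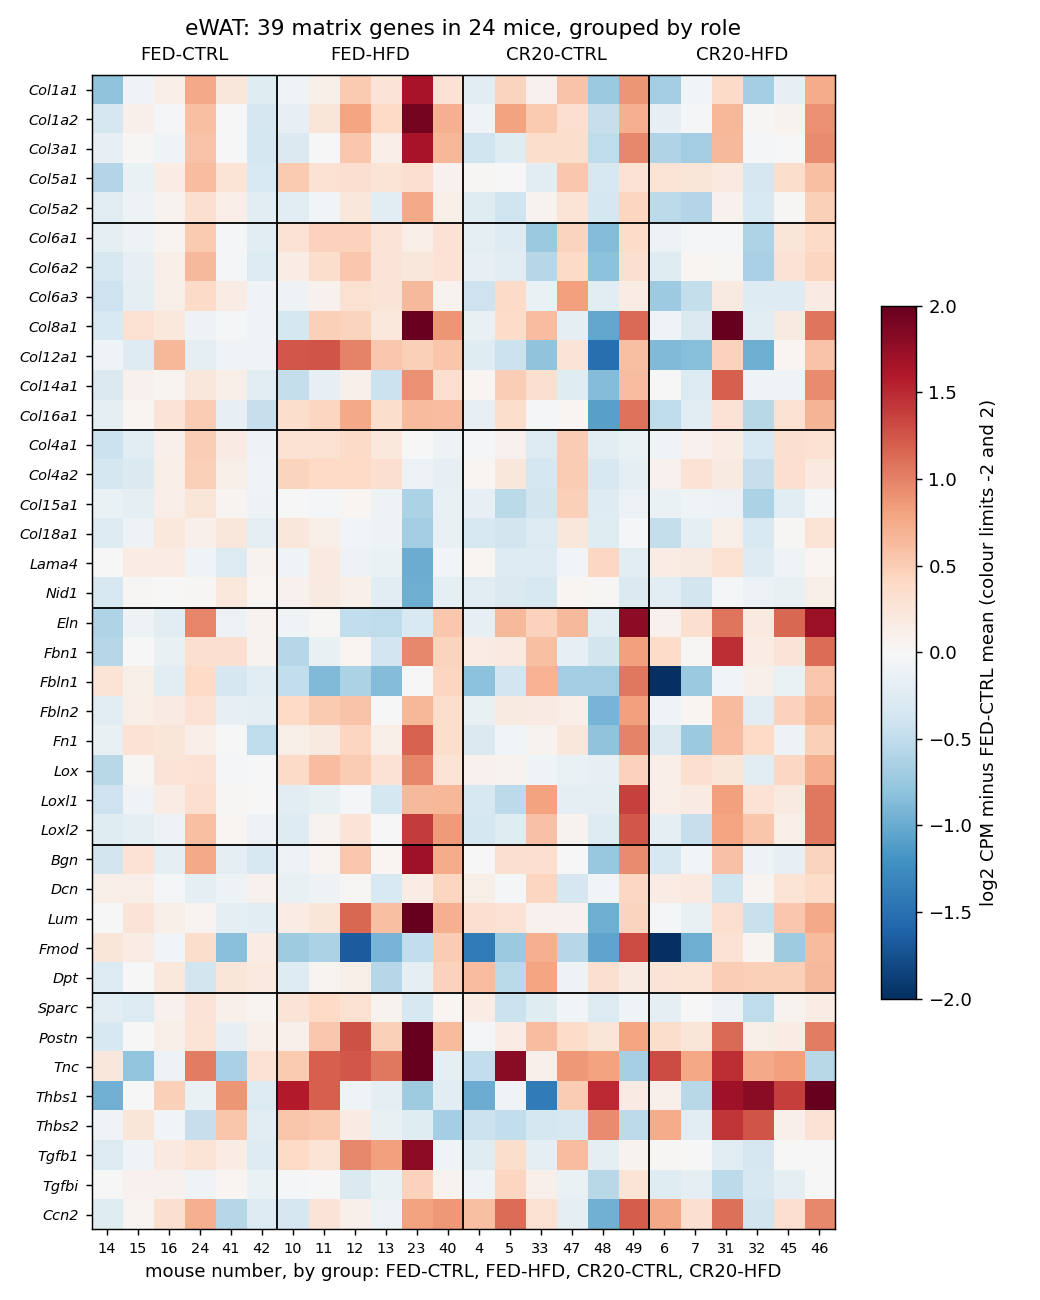
Difference of log2 CPM from the FED-CTRL mean for the 39 members (rows, grouped by role) in the 24 eWAT libraries (columns, by group and mouse number), with colours limited at -2 and 2. The column of FED-HFD mouse 23 holds the highest of the 24 values for 13 members and the lowest for Lama4, Nid1 and Col18a1. The column of CR20-CTRL mouse 48 holds the lowest for 13 members.

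The next question was whether the mother's restriction changed matrix genes in the fat of mice on the high fat diet. Of the 39 members 3 were called between CR20-HFD and FED-HFD, or 7.69% beside 9.73% of all genes: Tgfb1 and Col12a1 were lower in CR20-HFD and Eln was higher. At an unadjusted p under 0.05 there were 8, with 3 higher and 5 lower, beside 29.8% of all genes. The median log2 difference over members was -0.11 with 14 of 39 above 0, beside 0.02 over all genes. All 5 fibrillar collagens lay below 0, with a median of -0.43, and none passed the test. FED-HFD mouse 23 was the highest of 24 mice for 4 of these 5. This comparison and the diet comparison in FED mice share the FED-HFD libraries, so a high value there would move both. In both comparisons all 39 members overlapped between the groups, beside 6.76% of all genes with no overlap for FED-HFD against FED-CTRL and 6.66% for CR20-HFD against FED-HFD.

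Col12a1 encodes the chain of type XII collagen and lies on chromosome 9 from 79506268 to 79626135 on the minus strand, with exons that overlap 4930562D21Rik on the other strand. Across the mice log2 CPM was 4.63, 4.81 and 5.56 in FED-CTRL, 5.36, 5.66 and 6.14 in FED-HFD, 3.38, 4.55 and 5.49 in CR20-CTRL, and 3.91, 4.48 and 5.46 in CR20-HFD. FED-HFD mice had the highest values as a group, and the highest CR20-HFD mouse reached only into the lower end of their range. Means were 54.3 ± 13.8 CPM in FED-HFD and 27.0 ± 13.2 CPM in CR20-HFD. CR20-HFD was lower by -1.00 on the log2 scale (SE 0.31, adjusted p = 0.0310, exact permutation p = 0.0130). The call did not rest on mouse 23, where Col12a1 was at the low end of its group, and it was lost in 5 of the 24 runs that each left out 1 mouse (FED-HFD mouse 11 or 12, CR20-HFD mouse 6, 7 or 32), without mice 4, 5 and 6 (-0.90, adjusted p = 0.0636) and with the mitochondrial share of counts as a covariate (-0.77, 0.156). Over all alternatives the adjusted p ran from 0.00852 to 0.156.

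Eln encodes elastin, the elastic core protein of arteries and connective tissue, and lies on chromosome 5 from 134731445 to 134776322 on the minus strand, with exons that overlap Gm30003 on the other strand. Its log2 CPM was 5.83, 6.32 and 7.41 in FED-CTRL, 5.92, 6.24 and 6.97 in FED-HFD, 6.20, 6.99 and 8.22 in CR20-CTRL, and 6.51, 7.13 and 8.15 in CR20-HFD. The CR20 groups had the higher medians on both diets, and all groups overlapped. Means were 81.2 ± 24.3 CPM in FED-HFD and 159 ± 74.6 CPM in CR20-HFD, and 91.7 ± 39.7 and 140 ± 82.1 CPM in FED-CTRL and CR20-CTRL. CR20-HFD was higher than FED-HFD by 0.97 on the log2 scale (SE 0.33, adjusted p = 0.0508, exact permutation p = 0.0195), close to the threshold, and the call was lost in 14 of 24 runs without 1 mouse, 4 of them FED-CTRL, 5 FED-HFD, 2 CR20-CTRL and 3 CR20-HFD. Without FED-HFD mouse 23 it was 0.94 (adjusted p = 0.107), and without mice 4, 5 and 6 the call stood at 1.08 (0.0306). The call was also lost with no low-count filter (0.96, adjusted p = 0.0859), with the range of animal numbers (0.71, 0.107) or the mitochondrial share (1.07, 0.0816) as a covariate, and without both mouse 23 and mouse 5 (0.93, 0.0889). On control diet CR20 exceeded FED by 0.61 (adjusted p = 0.763). Endothelial and mural markers moved with it: 5 of 10 and 2 of 8 were called higher in CR20-HFD than in FED-HFD, and the endothelial sum was 617 to 969 CPM against 273 to 612 CPM. Their part in the value of Eln was not tested.

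The macrophage markers went the way of Tgfb1 here, with 8 of 12 called lower in the CR20 group on high fat diet. Without mouse 23 and CR20-CTRL mouse 5 the difference in Tgfb1 was -0.61 (adjusted p = 0.0210), and Tgfb1 was called in all 24 runs without 1 mouse (-0.60, adjusted p = 0.0293, without mouse 23). Without mice 4, 5 and 6 it was -0.95 (adjusted p = 0.0145). With the mitochondrial share of counts as a covariate it was -0.42 (adjusted p = 0.136). Other members with an unadjusted p under 0.05 were Lum (-0.80, adjusted p = 0.0600), Dpt, the gene of dermatopontin (0.47, 0.0831), Col6a3 (-0.43, 0.132), Thbs2, the gene of thrombospondin 2 (0.64, 0.142), and Postn (-0.70, 0.146).

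Whether the diet difference itself depended on the mother's feeding was tested by the interaction of maternal group and diet. No member was called by edgeR, beside 2.42% of all genes, and 5 had an unadjusted p under 0.05, or 12.8%, beside 18.2% of all genes. Tgfb1 came closest, with a difference of diet contrasts of -1.00 (SE 0.32, adjusted p = 0.0909). The others were Postn (-1.07, adjusted p = 0.220), Lum (-0.90, 0.240), Col6a3 (-0.57, 0.266) and Col1a2 (-0.85, 0.269). DESeq2 called Tgfb1 and limma no member. So a difference between FED and CR20 mice in the diet contrast of Postn or Lum was not shown by edgeR at this size.

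In CR20 mice the diet contrast gave no call among 39 members and 0% of all genes. At an unadjusted p under 0.05 edgeR gave 3 members, Thbs2 (0.81, adjusted p = 0.789), Thbs1 (1.09, 0.828) and Tgfbi (-0.27, 0.828), beside 6.03% of all genes. On control diet CR20 and FED mice differed in no member and in 0% of genes, with 0 members at an unadjusted p under 0.05 beside 7.39% of genes. DESeq2 and limma called no member in either comparison, and edgeR called none in the 24 runs that each left out 1 mouse. Among the eWAT libraries, CR20-CTRL mouse 48 was the lowest of 24 for 13 of the 39 members. CR20-CTRL mouse 49 was the highest for 7.

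The other genes of the matrix pathway, in 7 lists, gave 11 calls among 140 tested in FED-HFD against FED-CTRL, or 7.86% beside the 8.01% of all genes. In FED-HFD against FED-CTRL, 2 of 18 other collagen chains were called, both higher (Col28a1, 1.89, and Col27a1, 0.75), 0 of 23 genes of collagen processing and crosslinking were called by edgeR (3 higher and 3 lower at an unadjusted p under 0.05), and other matricellular genes gave 0 of 14 (2 and 3). Of 19 other basement membrane genes Lamb3 was higher (0.91) and Smoc1 lower (-0.94), and of 22 other elastic fibre and proteoglycan genes Fbln7 was higher (1.71) and Emilin2 (-0.76) and Podn (-0.65) were lower. In TGF-beta signalling 1 of 21 was called, Nrros (1.02), whose product tethers latent TGF-beta on myeloid cells. Of 23 matrix receptors 3 were higher, namely the heparan sulfate proteoglycans Sdc3 (1.40) and Sdc1 (1.86) and the fibronectin receptor chain Itga5 (0.82).

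Between CR20-HFD and FED-HFD 15 of the 140 were called, or 10.7% beside the 9.73% of all genes. Other matricellular genes gave 3 higher and 1 lower of 14, with Ccn1 (1.31), Ccn3 (1.05) and Igfbp3 (1.13) higher and Spp1, the gene of osteopontin, lower (-2.91). In TGF-beta signalling 3 of 21 were lower, Nrros (-1.16), Tgif1 (-1.24) and the receptor Tgfbr1 (-0.70). Of 23 receptors 3 were lower, Sdc3 (-1.54), Sdc1 (-1.80) and the collagen uptake receptor Mrc2 (-1.23). Processing gave Colgalt1 lower (-0.59), basement membrane genes gave Smoc1 higher (1.19) and Lamb3 lower (-0.75), elastic fibre genes gave Ltbp4 higher (0.69) and Fbln7 lower (-1.68), and 0 of 18 other collagen chains were called by edgeR, with 1 at an unadjusted p under 0.05. In the interaction Sdc3 (-1.67), Nrros (-1.20), Tgif1 (-1.41), Ccn1 (1.64) and P4ha2, a collagen prolyl hydroxylase (0.67), were called.

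In liver 37 members could be tested, since Col8a1 and Lox were too low. The question was again the diet. In FED mice no member was called by edgeR or DESeq2, beside 0.109% of all 13787 tested genes, while limma called Col15a1. At an unadjusted p under 0.05 there were 8 members and all were lower on the high fat diet, or 21.6%, beside 6.66% of all genes in either direction and 3.39% in the lower direction. The members' median was -0.34 with 5 of 37 above 0, beside 0.00 for all genes. All 5 fibrillar collagens (median -0.66) and all 6 basement membrane genes (median -0.33) lay below 0.

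Col15a1, a collagen of the basement membrane zone around vessels, lies on chromosome 4 from 47207582 to 47313179 on the plus strand, with exons that overlap Gm12426 on the other strand. Its log2 CPM in liver was 2.03, 2.97 and 3.60 in FED-CTRL, 1.02, 1.73 and 2.47 in FED-HFD, 1.58, 2.90 and 4.04 in CR20-CTRL, and 0.68, 1.32 and 2.04 in CR20-HFD. Both high fat groups lay lower than both control groups, with overlap at the edges. Means were 8.19 ± 3.24, 3.43 ± 1.39, 7.83 ± 5.06 and 2.47 ± 0.840 CPM in that order, from 19 to 279 counts a library. In CR20 mice the diet difference was -1.66 (SE 0.38, adjusted p = 0.0431, exact permutation p = 0.0130). In FED mice it was -1.24 (SE 0.37, adjusted p = 0.348, exact permutation p = 0.0108). The 2 diet differences were not shown to differ, with an interaction of -0.42 (adjusted p = 0.999).

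Col15a1 was the 1 member called in the diet contrast of CR20 livers, beside 0.522% of all genes. At an unadjusted p under 0.05 there was Lum as well (-0.94, adjusted p = 0.339), 2 of 37 members or 5.41%, beside 9.57% of genes, and the members' median was -0.04. The call was lost in 9 of 24 runs without 1 mouse (FED-HFD 13 or 23, CR20-CTRL 47 or 49, CR20-HFD 6, 7, 31, 32 or 46), with the fold change between -1.32 and -1.68 in those runs. It was lost too when only the 2 groups compared were fitted (adjusted p = 0.213) and with the range of animal numbers as a covariate (-1.51, adjusted p = 0.0911). The other 7 members under 0.05 in FED livers were Lum (-1.00, adjusted p = 0.468), Lama4, a laminin chain of vessels (-0.66, 0.555), Col3a1 (-0.66, 0.614), Col14a1 (-0.34, 0.618), Thbs2 (-0.54, 0.624), Nid1, the gene of nidogen 1 (-0.51, 0.624), and Col5a2 (-0.66, 0.722). None of them passed the test.

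The level of matrix genes in liver differed between libraries of low and higher mitochondrial share. In the 6 libraries of low mitochondrial share the members took 0.150 to 0.204% of counts, and in the other 18 they took 0.208 to 0.406%. Of 37 members 27 had a lower median in the 6, or 73% beside 50.5% of all tested genes, and 5 (Col6a3, Col5a1, Col4a2, Col4a1 and Fn1) lay below the 18 with no overlap, 13.5% beside 6.72% of all genes. No member lay above the 18 without overlap, beside 5.62% of all genes. Col6a3 had a median log2 CPM of 1.88 against 4.00, and Fn1 of 9.29 against 10.46. Lum, Dpt and Postn lay higher in the 6, by 1.04, 0.86 and 0.59. The 6 came from 2 FED-CTRL, 1 FED-HFD, 2 CR20-CTRL and 1 CR20-HFD mice, and what set them apart was not tested.

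With these 6 libraries left out, chosen after the data were seen, 24 of 37 members had an unadjusted p under 0.05 for FED-HFD against FED-CTRL and all 24 were lower, 64.9% beside 11.9% of all genes in either direction. None was called by edgeR. Col15a1 stood at -1.41 (adjusted p = 0.111), Col1a1 at -1.34 (0.278), Col6a2 at -1.00 (0.208), Col3a1 at -0.90 (0.225) and Col5a1 at -0.74 (0.193). This fit had 4 FED-CTRL and 5 FED-HFD mice. The 6 left-out libraries were also those with the smallest share of counts in members, 0.150 to 0.204% against 0.208 to 0.406%. More of them were FED-CTRL than FED-HFD, so leaving them out can itself move this contrast. The count of 24 is thus no separate support for lower matrix genes in FED-HFD. In CR20 mice 5 members were under 0.05 (13.5% beside 13.6% of all genes), and Col15a1 was called at -1.95 (adjusted p = 0.00385). The count of 8 in the full set fell to 3 without FED-CTRL mouse 15 and to 4 without FED-CTRL mouse 16. The summed level of 10 hepatic stellate markers was 171 to 292 CPM in FED-CTRL and 158 to 255 in FED-HFD, and 2 of the 10 had an unadjusted p under 0.05, both lower.

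The comparisons of CR20 with FED mice gave no call among members in liver, by edgeR, DESeq2 or limma, and 0% of all genes on either diet or for the interaction. On control diet 0 members had an unadjusted p under 0.05, beside 2.17% of all genes. On high fat diet there were 2, Postn (0.70, adjusted p = 1.00) and Tnc (1.20, 1.00), beside 3.58%. In the interaction there was Tnc (1.48, adjusted p = 0.999), beside 1.76%. No other pathway gene of the lists was called in liver.

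**Figure D4:**
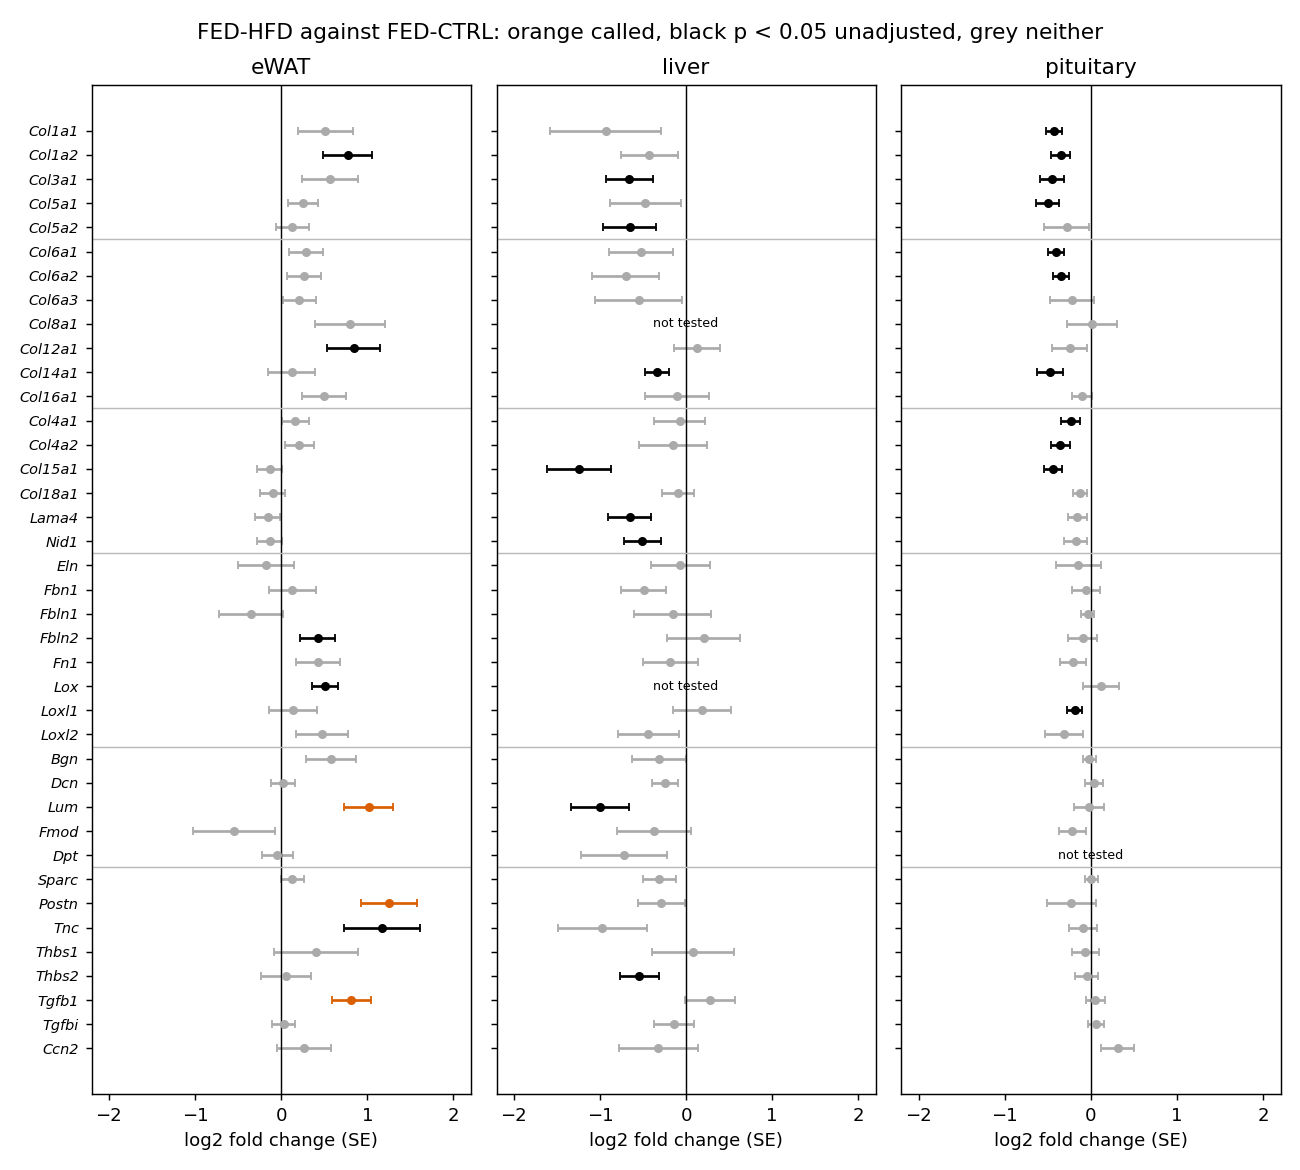
Fitted log2 fold change of FED-HFD against FED-CTRL with its standard error for each member, grouped by role, in eWAT, liver and pituitary, in orange where called, black where the unadjusted p was under 0.05 and grey otherwise. Points lie above 0 for 31 of 39 members in eWAT and below 0 for 32 of 37 in liver and 31 of 38 in pituitary, and the orange points are Postn, Tgfb1 and Lum in eWAT.

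In pituitary 38 members were tested, all but Dpt, and none was called in any of the 5 comparisons by edgeR, DESeq2 or limma with all mice kept. Nor was any other gene by edgeR, so 0% of 16657 genes is the background of each. For FED-HFD against FED-CTRL, 11 members had an unadjusted p under 0.05, 28.9%, beside 9.64% of all genes. All 11 were lower on the high fat diet, beside 5.24% of all genes that were lower. They were 4 of the 5 fibrillar collagens, 3 of the 7 microfibrillar, short-chain and fibril-associated collagens, 3 of the 6 basement membrane genes and Loxl1. No small proteoglycan and no matricellular gene was among them. The fibrillar collagens had a median of -0.43, the matricellular genes of -0.02, and all members of -0.17 beside 0.00 for all genes.

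For CR20-HFD against FED-HFD, 13 of 38 members had an unadjusted p under 0.05, 34.2%, beside 6.77% of all genes, and all 13 were higher in CR20-HFD, beside 3.33% of all genes that were higher. Their median was 0.19 with 32 of 38 above 0. Both comparisons share the 6 FED-HFD libraries, so the 11 and the 13 are not separate observations. The largest fold changes among the 13 were in Loxl2, a lysyl oxidase acting on type IV collagen (0.73, adjusted p = 0.491), Thbs1 (0.55, 0.388), Col14a1 (0.51, 0.491) and Fn1 (0.44, 0.530), while the 3 genes given next were chosen by p.

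Col1a1, the main chain of type I collagen, had the smallest p of all 16657 genes in CR20-HFD against FED-HFD. It lies on chromosome 11 from 94827050 to 94843868 on the plus strand. Its log2 CPM was 5.21, 5.42 and 5.52 in FED-CTRL, 4.85, 4.96 and 5.12 in FED-HFD, 4.99, 5.34 and 5.59 in CR20-CTRL, and 5.20, 5.41 and 5.55 in CR20-HFD. All 6 FED-HFD mice lay below every FED-CTRL and every CR20-HFD mouse. Means were 42.0 ± 3.56, 31.2 ± 2.31, 40.6 ± 6.42 and 42.1 ± 4.83 CPM in that order. FED-HFD differed from FED-CTRL by -0.43 (SE 0.093, adjusted p = 0.150), and CR20-HFD from FED-HFD by 0.43 (SE 0.093, adjusted p = 0.388). The exact permutation p was 0.00216 in both, the smallest that 924 divisions allow. The interaction was 0.48 (adjusted p = 0.314), and neither difference passed the test over all genes. Over the alternatives the adjusted p ran from 0.0230 to 0.335 for the diet difference and from 0.0535 to 0.669 for the maternal one. The diet difference had an adjusted p under 0.055 with DESeq2 (-0.42, 0.0230) and with no low-count filter (-0.42, 0.0277), as did the maternal one with no filter (0.43, 0.0535), but each fold change was under 0.58 and none was a call.

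Groups failed to overlap in 3 members for FED-HFD against FED-CTRL, namely Col1a1, Col3a1 and Col5a1, beside 0.384% of all genes, and in 1 member, Col1a1, for CR20-HFD against FED-HFD, beside 0.27%. Col3a1 differed by -0.45 between FED-HFD and FED-CTRL (adjusted p = 0.260) and Col5a1 by -0.50 (0.207).

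Col6a1, a chain of type VI collagen, lies on chromosome 10 from 76543440 to 76562283 on the minus strand. Its log2 CPM was 4.51, 4.72 and 4.90 in FED-CTRL, 4.00, 4.34 and 4.52 in FED-HFD, 4.42, 4.62 and 4.84 in CR20-CTRL, and 4.45, 4.64 and 4.83 in CR20-HFD. FED-HFD was the low group, and its highest mouse touched the lower end of the others. The differences were -0.41 from FED-CTRL (SE 0.094, adjusted p = 0.150, exact permutation p = 0.00433) and 0.33 for CR20-HFD over FED-HFD (SE 0.094, adjusted p = 0.408, exact permutation p = 0.00433). Col6a2, whose product joins the same trimer, had -0.34 and 0.35.

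Col15a1 in pituitary had log2 CPM of 5.04, 5.25 and 5.51 in FED-CTRL, 4.46, 4.84 and 5.11 in FED-HFD, 5.07, 5.39 and 5.51 in CR20-CTRL, and 4.96, 5.13 and 5.45 in CR20-HFD. As with Col6a1, FED-HFD held the lowest mice and overlapped slightly with the rest. It differed by -0.44 from FED-CTRL (SE 0.11, adjusted p = 0.155, exact permutation p = 0.00649), and CR20-HFD exceeded it by 0.39 (SE 0.11, adjusted p = 0.388, exact permutation p = 0.0130). The diet difference also had an adjusted p under 0.055 with DESeq2 for Col6a1 (-0.40, 0.0377) and Col15a1 (-0.44, 0.0527) and, with no low-count filter, for Col15a1 (0.0429), again with fold changes under 0.58.

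**Figure D5:**
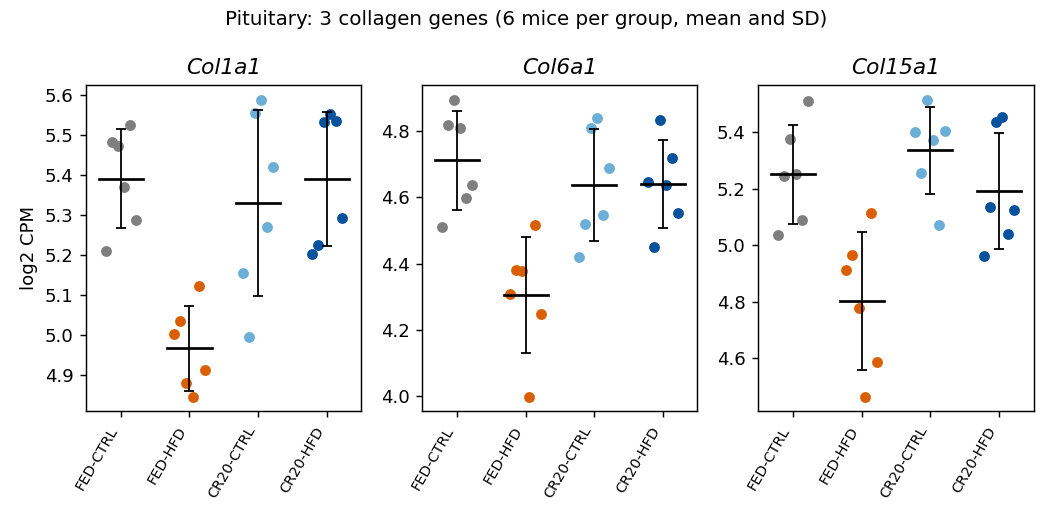
Log2 CPM in pituitary of Col1a1, Col6a1 and Col15a1 by group, with a point per mouse and a black line and bar for the mean and SD (n = 6). FED-HFD is the lowest group in each panel, and for Col1a1 its highest mouse (5.12) lies below the lowest mouse of FED-CTRL (5.21) and of CR20-HFD (5.20).

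FED-HFD mouse 13, whose library had the highest joint sum of posterior pituitary and erythrocyte genes, was the lowest of 24 for 14 members, including all 6 basement membrane genes. The joint sum does not show which of these kinds of gene was high. Without mouse 13, 10 members had an unadjusted p under 0.05 for FED-HFD against FED-CTRL and 11 for CR20-HFD against FED-HFD. Col1a1 then stood at -0.40 (adjusted p = 0.263) and 0.40 (0.565), Col6a1 at -0.35 (0.356) and 0.27 (0.712), and Col15a1 at -0.38 (0.356) and 0.32 (0.712). Over all 24 runs without 1 mouse these counts ran from 9 to 12 and from 11 to 16. Stromal progenitor markers summed to 138 to 188 CPM in FED-CTRL, 152 to 247 in FED-HFD and 156 to 193 in CR20-HFD. Their median sum was highest in FED-HFD, and none of these markers was at 0 in all 24 pituitary libraries. Of the 16 collagen members, 14 had their lowest median in FED-HFD, the exceptions being Col6a3 and Col8a1.

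In the remaining pituitary comparisons fewer members stood out. The diet contrast in CR20 mice had 0 members with an unadjusted p under 0.05, beside 7.28% of all genes. On control diet CR20 differed from FED in 3 members at that level, Thbs1 (0.49, adjusted p = 0.119), Lox (0.63, 0.130) and Loxl1 (-0.19, 0.243), beside 17.3% of all genes. The interaction had 8 members, 21.1%, beside 11% of all genes, with Col1a1, Col6a2 (0.42, adjusted p = 0.324), Col6a1 (0.41, 0.334) and Col5a1 (0.52, 0.348) of smallest p. No other pathway gene of the lists was called in pituitary, and 10 of 20 other basement membrane genes had an unadjusted p under 0.05 for FED-HFD against FED-CTRL, all lower, or 50% beside 9.64% of all genes in either direction and 5.24% in the lower one.

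Set side by side, the same diet in FED mice went with medians of 0.26 in eWAT, -0.34 in liver and -0.17 in pituitary over members. The difference between tissues was not tested, since each was normalized apart. Col1a2 stood at 0.77 in eWAT and -0.35 in pituitary, and Lum at 1.02 in eWAT and -1.00 in liver.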

How the data were processed

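Total RNA of eWAT, liver and pituitary was prepared with a stranded kit, per the labels, and liver RNA was extracted with a different kit from the other tissues. The authors trimmed reads with Trimmomatic, aligned them to GRCm39 with STAR and counted them per gene with featureCounts, whose strand setting is not given in the sources used here. The deposited counts are raw and whole.

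Genes were named by GENCODE M39, with 54749 of 55416 matched. Each tissue was fitted alone, with 24 libraries and a mean per group, by edgeR 4.0.16 (filterByExpr, TMM, quasi-likelihood test) in R 4.3.3, with Benjamini-Hochberg adjustment over all tested genes. The thresholds, adjusted p under 0.055 and log2 fold change of at least 0.58, are those of the study. Log2 CPM used a prior count of 2. The exact permutation tests are two-sided. Alternatives were limma 3.58.1 (voom with quality weights), DESeq2 1.42.0, other size factors and filters, covariates, and leaving out each mouse.

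The members and lists were chosen with earlier results of these data known. Members called in any comparison were described in every group, ordered by p, and where a tissue had no call the 3 with the smallest p. From each other list up to 3 called genes of smallest p were named. P-values set a difference between groups against the spread between mice. Litters are not given in the sources used here, so the spread between litters was not taken into account. A gene that antisense or overlapping genes share reads with may be miscounted.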

Additional observations from a re-analysis of the deposited data

Results flagged for a closer look

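Among 36 groups of 6 mice tested for a single mouse far from the rest, 2 were found, and chance gives about 1 in 20. In eWAT, Lum in CR20-CTRL mouse 48 was at 4.88 log2 CPM, with the nearest mouse of its group at 5.95. Col12a1 in FED-CTRL mouse 16 was at 5.56 log2 CPM in eWAT, with the nearest at 4.82.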

How the results depend on the processing

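The 15 counts of called members were recomputed under each alternative. The share of all genes called under each alternative is not given beside them, so a larger or smaller count is no result about the members. In eWAT the 3 members called for FED-HFD against FED-CTRL became 5 with limma, 6 with DESeq2, 0 with the mitochondrial share as a covariate and 1 without FED-HFD mouse 23 and CR20-CTRL mouse 5, and ran from 0 (without FED-HFD mouse 23) to 4 without 1 mouse. The 3 for CR20-HFD against FED-HFD became 1 with a minimum log2 fold change of 1 and 0 with the mitochondrial share, and ran from 1 (without FED-HFD mouse 12) to 5 (without FED-HFD mouse 40). The interaction count of 0 became 1 (Tgfb1) with DESeq2 and ran from 0 to 1 (without FED-HFD mouse 11 or 40). In liver the count of 0 for FED mice became 1 with limma, and the 1 for CR20 mice became 0 with the range of animal numbers as a covariate and with only the compared groups, and ran from 0 to 1. In pituitary CR20-CTRL against FED-CTRL ran from 0 to 2 without 1 mouse (2, Lox and Thbs1, without FED-CTRL mouse 42, and 1, Lox, without CR20-CTRL mouse 4). The diet difference of Eln in eWAT, -0.18 and not called, ran from -0.34 to 0.091 without 1 mouse and changed sign without FED-CTRL mouse 24. The cause of these changes was not tested. The covariates and the sets of left-out libraries were chosen after seeing the data, apart from single mice and animal-number range. No paired analysis was possible because the groups compared within a tissue hold different mice with no shared numbers, and the dam or litter of each is not given in the sources used here. Counts of under 300 a library limit Col15a1 in liver.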
